A study of Mus musculus with 10 samples.

Results

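Genes of fatty acid oxidation and of peroxisomes were compared between cholangiocytes grown in a collagen I matrix and in a laminin-rich matrix. The set holds 37 genes, chosen by symbol from the 18407 genes of the deposited count table. The rule uses no measured value, but the genes were chosen with earlier results of these data known. Of these, 18 encode proteins of mitochondrial fatty acid oxidation and 19 encode peroxisomal enzymes, an importer or peroxins, the proteins that build peroxisomes.

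Messenger RNA was measured in NMC cells, a cell line of normal mouse cholangiocytes, which are the epithelial cells of bile ducts. Cells of this single line were cultured for 6 days as 3D double spheroids and given no further treatment. In the collagen group (5 libraries) the spheroids sat in collagen I at 1 mg/mL, a fibrillar protein of connective tissue. In the laminin group (5 libraries) they sat in laminin and collagen I mixed 3:1 by volume, so collagen I was present in both matrices. Laminin builds the basement membrane on which epithelium rests.

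Mitochondria break fatty acids down in a repeating spiral. Long chains enter bound to carnitine, acyl-CoA dehydrogenases of different chain-length preference start each turn, hydratase, dehydrogenase and thiolase activities finish it, and electrons leave through the electron transfer flavoprotein. Peroxisomes shorten very long and branched chains with oxidases that pass electrons to oxygen, and catalase removes the hydrogen peroxide formed. Peroxins import these enzymes into the organelle, assemble its membrane and divide it.

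No gene of the set passed the test for a difference between matrices, and 4 of the 18 mitochondrial genes had an unadjusted p under 0.05, each with a higher mean in the laminin-rich matrix. The highest ratio was that of Cpt1a, the liver form of the enzyme that admits long-chain fatty acids to mitochondria, at 1.49 times its level in collagen. The β subunit of the trifunctional protein (Hadhb) stood at 1.28 times, the medium-chain dehydrogenase (Acadm) at 1.24 times and the flavoprotein dehydrogenase that hands electrons to ubiquinone (Etfdh) at 1.22 times. Among peroxisomal genes the oxidase Acox3 stood at 1.36 times, the multifunctional enzyme Hsd17b4 at 1.20 times and the membrane peroxin Pex3 at 0.751 times its level in collagen. The other 29 tested genes had no p under 0.05 before adjustment, and Ehhadh had too few reads to be tested.

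Counts were compared with edgeR's quasi-likelihood test over 10789 genes, with Benjamini-Hochberg adjustment over all of them, and levels are given in CPM (counts scaled to a common library size with TMM factors). At an adjusted p below 0.05 it called 0 of the 18 mitochondrial and 0 of the 18 tested peroxisomal genes, against 16 of all genes tested, or 0.148% (15 higher in laminin, 0.139%). At an unadjusted p under 0.05 there were 4 mitochondrial genes, all higher in laminin, and 3 peroxisomal genes, of which 2 were higher. Over all genes that level was reached by 11.7%, with 6.7% higher and 4.95% lower. Group ranges did not overlap for 3 mitochondrial genes (Cpt1a, Hadhb and Etfdh, all higher in laminin) and for no peroxisomal gene, against 3.23% of all genes in either direction and 1.94% higher. DESeq2 called 2 mitochondrial and 0 peroxisomal genes, against 1.94% of all genes, and limma-voom called none of either set.

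Total counts per library ran from 4424725 to 8129979, and the 3 counts that an observed 0 allows corresponded to 0.365 to 0.691 CPM, a limit that covers counting error only. The most similar pair of libraries, collagen 1 and 2, differed beyond the noise of counting, and each of the 10 was counted as a sample. Keratins 8, 18 and 19 led the cholangiocyte markers, of which 13 of 20 averaged at least 1 CPM, whereas Sctr had no count and Krt7 averaged 6.80 and 3.34 CPM (collagen, laminin). Summed cholangiocyte markers ran from 3660 to 5791 CPM in collagen (median 4894) and from 3769 to 5021 CPM in laminin (median 4015). Summed hepatocyte markers ran from 92.2 to 142 CPM in collagen (median 103) and from 138 to 191 CPM in laminin (median 165), carried by Hnf4a, Alb and Ttr, with 5 of 22 at 1 CPM or more. Cyp2e1, Cyp3a11, Cyp7a1, Pck1, Ass1 and Arg1, of the same list, had no count in any library. In the edgeR comparison 4 hepatocyte markers were tested and 0 called, with a median log2 difference of 0.68. Of these, 3 were higher in laminin at an unadjusted p under 0.05, against 6.7% of all genes. Of 12 cholangiocyte markers tested 0 were called, with a median log2 difference of 0.10. At an unadjusted p under 0.05, 3 of these 12 were higher in laminin and 0 lower, against 6.7% and 4.95% of all genes. Medians of summed fibroblast and stellate markers were 703 and 784 CPM (8 of 16 at 1 CPM or more), of leukocyte markers 76.8 and 70.7 CPM (2 of 13), of endothelial markers 1.69 and 2.10 CPM (1 of 12), and of adipocyte markers 0.365 and 0.363 CPM (0 of 7). The part of these markers in the values below was not tested, and in bulk RNA a change in the share of cells cannot be told apart from a change in RNA per cell.

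The start regions of the 4 mitochondrial genes with an unadjusted p under 0.05 are shown because known regulators of this pathway bind near such starts: PPAR and estrogen-related receptors read AGGTCA half-sites, NRF1 reads GCGCATGCG and Sp1 reads GGGCGG. Each window runs from 250 bases before to 50 after the RefSeq start (GRCm38.p6), 5′ to 3′ on the gene's strand, at chr19:3323051-3323350 (plus) for Cpt1a, chr3:153944594-153944893 (minus) for Acadm, chr5:30155003-30155302 (plus) for Hadhb and chr3:79628718-79629017 (minus) for Etfdh. Capitals mark an AGGTCA half-site on the reverse strand in Cpt1a and Acadm, GGGCGG on either strand in Hadhb, and GCGCATGCG on both strands, which overlap, in Etfdh.
Cpt1a: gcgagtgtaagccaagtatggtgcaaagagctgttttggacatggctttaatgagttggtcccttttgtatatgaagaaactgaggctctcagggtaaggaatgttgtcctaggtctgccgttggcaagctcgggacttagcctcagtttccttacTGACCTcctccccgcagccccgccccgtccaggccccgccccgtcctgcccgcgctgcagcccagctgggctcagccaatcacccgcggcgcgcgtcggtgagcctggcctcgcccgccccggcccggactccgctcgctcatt
Acadm: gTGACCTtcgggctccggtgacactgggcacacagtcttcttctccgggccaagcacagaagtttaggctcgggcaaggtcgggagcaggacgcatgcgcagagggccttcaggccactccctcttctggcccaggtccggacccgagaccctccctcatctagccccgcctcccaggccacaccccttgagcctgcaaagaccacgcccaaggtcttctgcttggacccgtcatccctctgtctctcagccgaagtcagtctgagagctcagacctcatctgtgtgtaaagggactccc
Hadhb: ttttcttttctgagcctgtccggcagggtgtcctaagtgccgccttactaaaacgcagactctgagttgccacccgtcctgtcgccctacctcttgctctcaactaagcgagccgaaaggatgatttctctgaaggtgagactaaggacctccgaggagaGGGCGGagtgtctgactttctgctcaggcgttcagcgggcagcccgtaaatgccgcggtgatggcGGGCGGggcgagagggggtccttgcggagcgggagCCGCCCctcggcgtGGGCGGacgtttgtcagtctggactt
Etfdh: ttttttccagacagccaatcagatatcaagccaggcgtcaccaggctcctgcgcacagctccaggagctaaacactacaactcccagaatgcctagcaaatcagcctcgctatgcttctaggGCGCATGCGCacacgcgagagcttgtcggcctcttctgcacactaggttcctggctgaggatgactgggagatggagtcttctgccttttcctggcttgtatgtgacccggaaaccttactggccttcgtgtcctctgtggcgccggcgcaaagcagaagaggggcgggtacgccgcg
In Cpt1a the half-site began 94 bases before the start, and in Acadm 249 bases before it. The marked letters of Etfdh began 128 bases before the start. GENCODE, another annotation, begins Cpt1a at 3322334 and Etfdh at 79629500, upstream of the RefSeq starts used (3323301 and 79628767). The marked letters of Cpt1a and Etfdh therefore lie within the genes as GENCODE draws them. Other matches were left in lower case: GCGCATGCG in Acadm, and GGGCGG and CCAAT in both Cpt1a and Etfdh.

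RefSeq windows were found for 32 of the 37 genes, and the 5 with no entry were Acaa2, Decr1, Hsd17b4, Pex2 and Pex19. On either strand AGGTCA stood in 6 of these 32 genes (4 of 16 mitochondrial, namely Cpt1a, Acadm, Acadvl and Echs1, and 2 of 16 peroxisomal, Cat and Scp2), against 16.3% of all 32851 windows of this length. The longer estrogen-related receptor motif TCAAGGTCA, which contains AGGTCA, stood in 0 of the 32 and in 0.423% of all windows. GCGCATGCG stood in Acadm and Etfdh and in 1.75% of all windows. GGGCGG stood in 26 of the 32 genes (13 of 16 in each set) against 35.7% of all windows, and CCAAT, the box read by NF-Y, in 12 against 37.4%. These are matches of letters, not measured binding.

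The carnitine shuttle held the highest fitted difference of the set (Cpt1a) and one close to 0 (Cpt2). Cpt1a (ENSMUSG00000024900.5, chromosome 19 from 3322334 to 3385733 in GRCm38, plus strand) stood at 181, 168, 163, 159 and 157 CPM in collagen 1 to 5 and at 193, 263, 315, 233 and 229 CPM in laminin 1 to 5. All 5 laminin libraries were above the highest collagen library, with laminin 3 highest and laminin 1 closest to collagen. The means were 166 ± 9.45 and 247 ± 45.6 CPM (SD, n = 5 per group), a log2 difference of 0.57 (SE 0.12, 95% interval 0.31 to 0.84, edgeR adjusted p = 0.0990).

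Slc25a20, the carrier that exchanges acylcarnitine for carnitine across the inner membrane, stood at 28.8, 34.6, 31.1, 36.6 and 34.0 CPM in collagen and at 33.0, 38.3, 33.3, 39.6 and 40.3 CPM in laminin. The ranges overlapped, and the log2 difference was 0.16 (SE 0.11, edgeR adjusted p = 0.618). Cpt2, which returns the acyl group to coenzyme A inside, stood at 29.4, 29.5, 27.6, 39.5 and 35.3 CPM in collagen and at 29.5, 28.0, 29.7, 38.7 and 31.6 CPM in laminin. Its groups covered nearly the same range, at a log2 difference of -0.030 (SE 0.13, 95% interval -0.32 to 0.26, edgeR adjusted p = 0.952). Of the other Cpt1 forms, outside the set, the muscle form Cpt1b was at or below 0.599 CPM in every library and was not tested, and the brain form Cpt1c averaged 15.0 ± 3.18 CPM in collagen and 14.2 ± 7.70 CPM in laminin (SD, n = 5 per group).

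**Figure D1:**
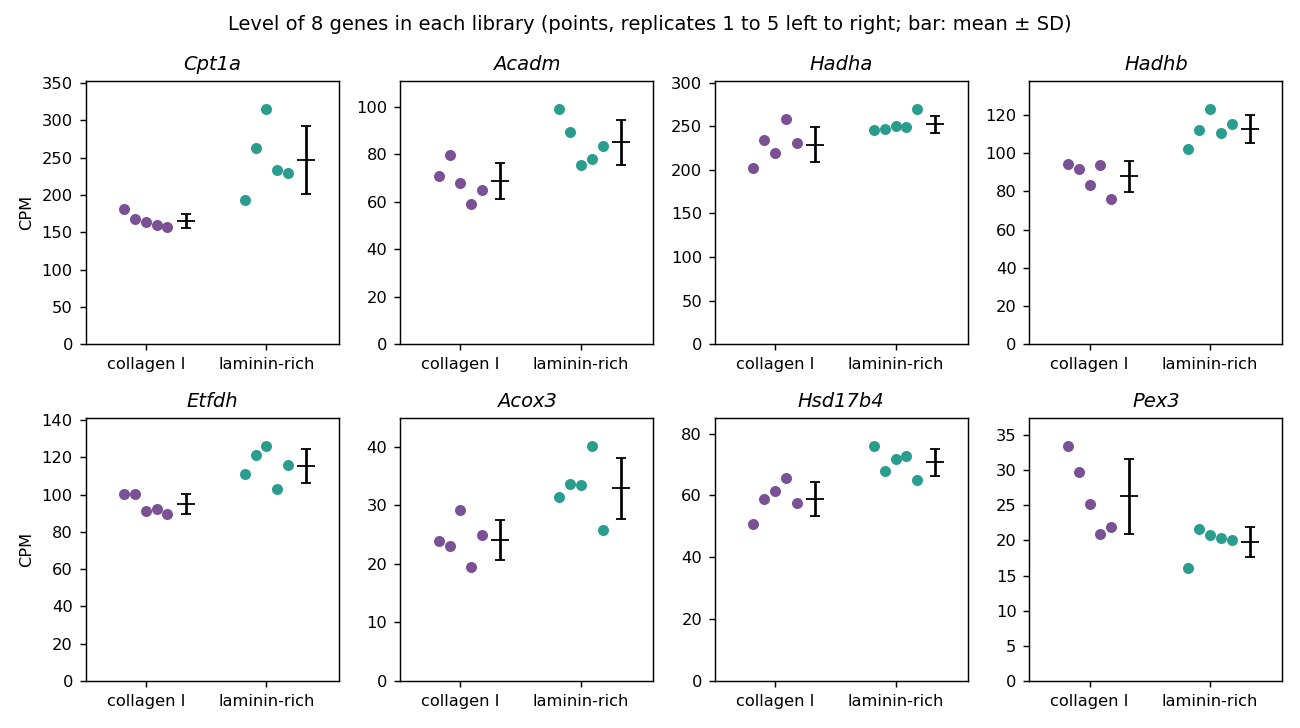
Levels in CPM (vertical axes, starting at 0) of 8 genes in each of the 5 collagen I and 5 laminin-rich libraries; points are libraries and bars are mean ± SD. Cpt1a, Hadhb and Etfdh have no overlap between groups, while Acadm, Hadha, Acox3, Hsd17b4 and Pex3 do.

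Of the 4 acyl-CoA dehydrogenases, only Acadm had an unadjusted p under 0.05, and none passed the test. Acadm (ENSMUSG00000062908.12, chromosome 3 from 153922357 to 153944632, minus strand) stood at 71.0, 79.6, 68.1, 59.2 and 65.0 CPM in collagen and at 99.0, 89.2, 75.5, 78.1 and 83.6 CPM in laminin. Collagen 2 lay above laminin 3 and 4, so the ranges overlapped. The means were 68.6 ± 7.56 and 85.1 ± 9.39 CPM (SD, n = 5 per group), a log2 difference of 0.31 (SE 0.11, 95% interval 0.066 to 0.55, edgeR adjusted p = 0.313). Acadvl, for very long chains, averaged 166 ± 32.1 and 196 ± 21.0 CPM (log2 difference 0.24, SE 0.14), with collagen 1 and 2 (134 and 130 CPM) below the other 8 libraries. Acadl, for long chains, averaged 134 ± 6.09 and 144 ± 12.7 CPM, and Acads, for short chains, 75.5 ± 17.7 and 76.0 ± 11.2 CPM. The log2 differences were 0.11 for Acadl and 0.0096 for Acads, with an interval of -0.35 to 0.37 for Acads.

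The trifunctional protein is built from α subunits (Hadha, long-chain hydratase and hydroxyacyl-CoA dehydrogenase) and β subunits (Hadhb, long-chain thiolase). The genes lie head to head on chromosome 5, Hadha on the minus strand from 30118304 to 30155162 and Hadhb on the plus strand from 30155248 to 30184593, with RefSeq starts 273 bases apart and start windows that share 228 bases. Hadhb stood at 94.2, 91.6, 83.5, 93.6 and 75.9 CPM in collagen and at 102, 112, 123, 111 and 115 CPM in laminin. Every laminin library was above every collagen library.

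The log2 difference of Hadhb was 0.36 (SE 0.097, 95% interval 0.15 to 0.57, edgeR adjusted p = 0.178), from 87.8 ± 7.89 to 113 ± 7.53 CPM (SD, n = 5 per group). Hadha stood at 202, 234, 220, 258 and 231 CPM in collagen and at 245, 246, 250, 249 and 270 CPM in laminin, so that collagen 4 lay above 4 of the laminin libraries. Its log2 difference was 0.14 (SE 0.090, 95% interval -0.056 to 0.33, edgeR adjusted p = 0.587). Whether the differences of Hadha and Hadhb differ from each other was not tested. The ratio of Hadhb to Hadha CPM averaged 0.386 ± 0.0506 in collagen and 0.447 ± 0.0292 in laminin, and collagen 1 (0.465) lay above 4 laminin libraries. Exons of Hadha overlap those of Garem2 on the opposite strand.

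**Figure D2:**
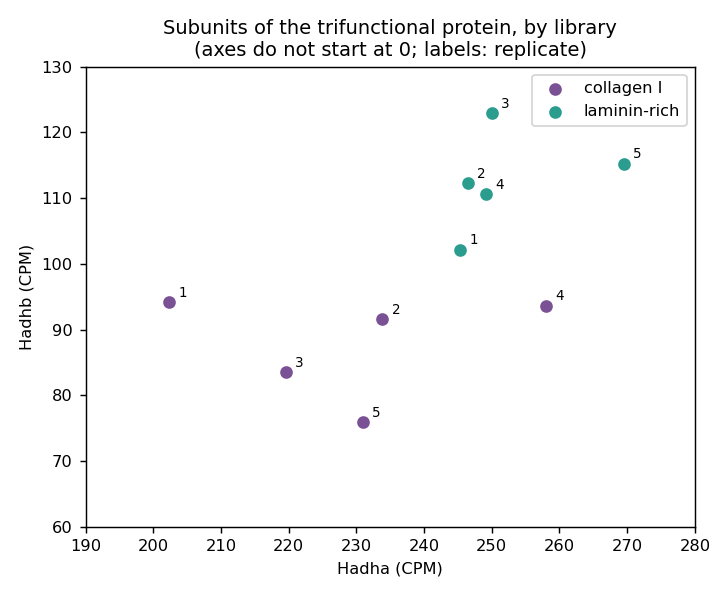
CPM of Hadhb (vertical) against CPM of Hadha (horizontal) in each library, labelled by replicate number, with axes that do not start at 0. The 5 laminin-rich libraries lie at 102 CPM or more of Hadhb and the 5 collagen I libraries at 94.2 CPM or less, while the groups overlap along Hadha.

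The enzymes of the later steps had differences of either sign, all with overlapping ranges. Echs1, the short-chain hydratase, averaged 78.5 ± 11.9 CPM in collagen and 69.4 ± 11.9 CPM in laminin (log2 difference -0.18, SE 0.14). Hadh, the medium- and short-chain hydroxyacyl-CoA dehydrogenase, averaged 111 ± 13.1 and 111 ± 11.2 CPM (0.0047, interval -0.24 to 0.24). Acaa2, the thiolase of these chain lengths, averaged 46.1 ± 9.63 and 53.3 ± 2.60 CPM (0.21, SE 0.14). Collagen 4 was the highest collagen library for all 3, at 98.1, 128 and 60.2 CPM.

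The auxiliary enzymes for unsaturated chains had lower means in laminin, none past the test. Eci1, an enoyl-CoA isomerase, averaged 57.1 ± 14.8 and 50.3 ± 3.18 CPM (log2 difference -0.18, SE 0.16), with collagen libraries spread from 41.1 to 75.5 CPM around the laminin range of 45.6 to 54.5 CPM. Its relative Eci2 averaged 82.6 ± 11.1 and 80.2 ± 4.37 CPM (-0.042, SE 0.11). Decr1, the 2,4-dienoyl-CoA reductase, had the lowest level per transcript length of the mitochondrial genes and averaged 8.90 ± 1.15 and 7.72 ± 3.09 CPM (-0.20, SE 0.23), and laminin 4, at 13.2 CPM, was above the 5.63 to 6.72 CPM of the other laminin libraries.

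Of the electron carriers, Etfdh (ENSMUSG00000027809.14, chromosome 3 from 79603788 to 79629500, minus strand) stood at 101, 101, 91.3, 92.4 and 89.5 CPM in collagen and at 111, 121, 126, 103 and 116 CPM in laminin. The lowest laminin library, laminin 4, was above both highest collagen libraries. The means were 94.9 ± 5.28 and 115 ± 9.05 CPM (SD, n = 5 per group), a log2 difference of 0.28 (SE 0.092, 95% interval 0.083 to 0.48, edgeR adjusted p = 0.267). Its exons overlap those of 4930579G24Rik on the opposite strand. The subunits of the flavoprotein that Etfdh oxidises had smaller fitted differences: Etfa averaged 155 ± 9.01 and 167 ± 22.7 CPM (0.10, SE 0.11) and Etfb 72.9 ± 20.5 and 66.1 ± 6.47 CPM (-0.14, SE 0.17). Etfb ranged from 50.8 CPM in collagen 1 to 99.7 CPM in collagen 4, which spans all laminin libraries.

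**Figure D3:**
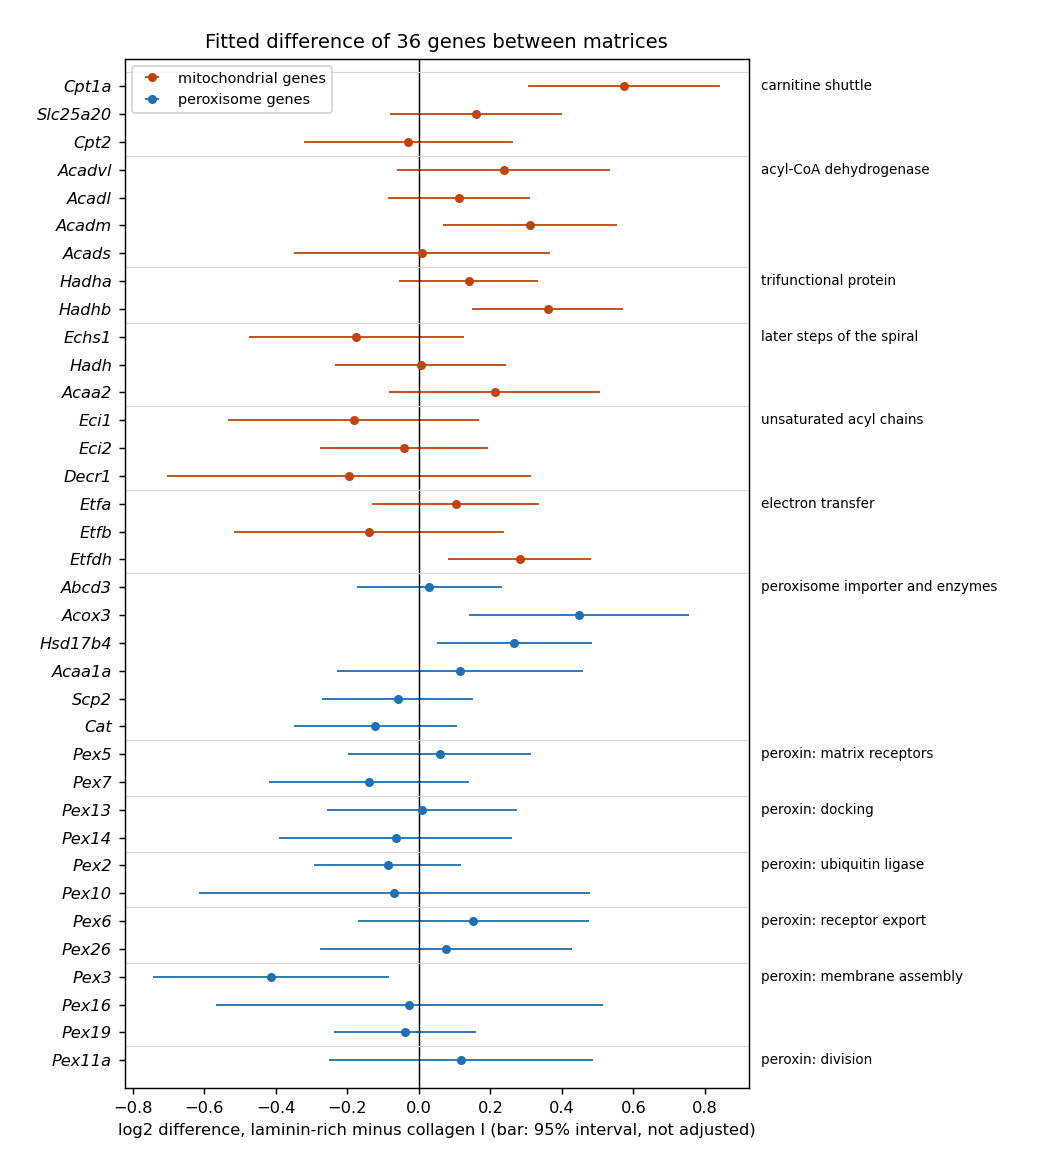
Fitted log2 difference (laminin-rich minus collagen I, horizontal) of the 36 tested genes, grouped by role, with unadjusted 95% intervals as bars. Only 7 intervals leave out 0, those of Cpt1a, Acadm, Hadhb, Etfdh, Acox3, Hsd17b4 and Pex3, and no adjusted p is below 0.05.

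Over the 18 mitochondrial genes the median log2 difference was 0.11, from -0.20 for Decr1 to 0.57 for Cpt1a, with 12 above 0. It was 0.063 without laminin 1 and 0.17 without collagen 4 and 5, and it turned to -0.017 without collagen 1, 2 and 3. The median of all genes tested was 0.0094, with 51.7% above 0. The summed level of the 18 genes was 1566, 1619, 1683, 1907 and 1719 CPM in collagen 1 to 5 and 1948, 1874, 1936, 1786 and 1964 CPM in laminin 1 to 5. Collagen 4 lay within the laminin range and the other collagen libraries below it.

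In the peroxisome, Acox3, an oxidase of branched-chain acyl-CoA, had the highest ratio. Acox3 (ENSMUSG00000029098.17, chromosome 5 from 35583040 to 35615352, plus strand) stood at 23.9, 23.0, 29.2, 19.5 and 24.9 CPM in collagen and at 31.5, 33.6, 33.4, 40.2 and 25.8 CPM in laminin. Of the laminin libraries, 4 were above the highest collagen library, and laminin 5 was not. The means were 24.1 ± 3.48 and 32.9 ± 5.14 CPM (SD, n = 5 per group), a log2 difference of 0.45 (SE 0.14, 95% interval 0.14 to 0.75, edgeR adjusted p = 0.254). Its exons overlap those of 4931431C16Rik on the opposite strand.

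After the oxidase, 2 multifunctional enzymes can carry out hydration and dehydrogenation. Hsd17b4 (ENSMUSG00000024507.6, chromosome 18 from 50128201 to 50196269, plus strand), which acts on branched and very long chains, stood at 50.7, 58.9, 61.4, 65.5 and 57.4 CPM in collagen and at 76.0, 67.9, 71.8, 72.7 and 65.0 CPM in laminin. Only collagen 4 reached into the laminin range. Its log2 difference was 0.27 (SE 0.099, 95% interval 0.052 to 0.48, edgeR adjusted p = 0.328), from 58.8 ± 5.47 to 70.7 ± 4.29 CPM (SD, n = 5 per group). Ehhadh, the other enzyme, had 1, 1, 2, 0 and 0 counts in collagen and 0, 0, 0, 1 and 0 in laminin. With so few counts Ehhadh did not pass the low-count filter and was not tested, so no statement about a difference can be made at this depth.

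The remaining peroxisomal enzymes and the importer had fitted log2 differences from -0.12 to 0.11. Abcd3, a transporter that brings acyl-CoA into peroxisomes, stood at 157, 155, 142, 150 and 149 CPM in collagen and at 140, 170, 167, 136 and 154 CPM in laminin (log2 difference 0.029, SE 0.094, edgeR adjusted p = 0.930). Cat, or catalase, stood at 193, 197, 181, 209 and 183 CPM in collagen and at 203, 172, 150, 198 and 160 CPM in laminin (-0.12, SE 0.11, edgeR adjusted p = 0.698). For Abcd3 the laminin libraries lie on both sides of the collagen range, and for Cat 3 of them lie below it. The thiolase Scp2, which also yields a sterol carrier protein, averaged 125 ± 8.12 and 120 ± 12.0 CPM (-0.059). The thiolase Acaa1a averaged 41.1 ± 7.73 and 44.5 ± 7.83 CPM (0.11), a value uncertain to the extent that reads were split with its near-identical copy Acaa1b.

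Among the peroxins, only Pex3 had an unadjusted p under 0.05. Pex3 (ENSMUSG00000019809.16, chromosome 10 from 13523842 to 13553142, minus strand), the membrane anchor of the factor that inserts peroxisomal membrane proteins, stood at 33.5, 29.8, 25.2, 21.0 and 22.0 CPM in collagen and at 16.1, 21.6, 20.8, 20.4 and 20.0 CPM in laminin. Collagen 1, 2, 3 and 5 were above every laminin library, collagen 4 was not, and laminin 1 was lowest. The means were 26.3 ± 5.29 and 19.8 ± 2.14 CPM (SD, n = 5 per group), a log2 difference of -0.41 (SE 0.15, 95% interval -0.74 to -0.084, edgeR adjusted p = 0.321). Its exons overlap those of Adat2 on the opposite strand. Its partners in membrane assembly gave -0.027 for Pex16 (11.8 ± 5.06 and 11.6 ± 1.24 CPM) and -0.038 for Pex19 (82.8 ± 5.59 and 80.6 ± 4.29 CPM), the cytosolic chaperone of membrane proteins.

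None of the genes of matrix import had an unadjusted p under 0.05. Pex5, the receptor for most matrix enzymes, stood at 52.4, 49.8, 66.5, 58.4 and 56.3 CPM in collagen and at 69.4, 52.5, 58.4, 62.9 and 51.6 CPM in laminin (log2 difference 0.058, SE 0.12, edgeR adjusted p = 0.890). Pex14, at the docking site, stood at 33.0, 36.1, 45.0, 48.2 and 52.1 CPM in collagen and at 49.5, 35.2, 37.1, 37.6 and 45.4 CPM in laminin (-0.065, SE 0.15, edgeR adjusted p = 0.902). Collagen 1 and 2 were the lowest collagen libraries in both genes. The docking partner Pex13 gave 0.0086, the second receptor Pex7 -0.14, the ubiquitin ligase subunits Pex2 and Pex10 -0.087 and -0.069, the export ATPase Pex6 0.15 and its membrane anchor Pex26 0.077, with every interval including 0.

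Pex11a, which acts in elongation and division of peroxisomes, stood at 9.60, 14.6, 12.4, 8.55 and 12.2 CPM in collagen and at 11.3, 12.5, 15.0, 11.1 and 12.4 CPM in laminin. The groups overlapped, at a log2 difference of 0.12 (SE 0.17, 95% interval -0.25 to 0.49, edgeR adjusted p = 0.836). Over the 18 tested peroxisomal genes, which leave out Ehhadh, the median log2 difference was -0.0090, from -0.41 for Pex3 to 0.45 for Acox3, with 9 above and 9 below 0. Their summed level was 1050, 1027, 1093, 1108 and 1063 CPM in collagen and 1145, 1059, 1025, 1052 and 1067 CPM in laminin, with overlapping ranges.

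Levels were compared between genes per kilobase of the longest annotated transcript, in collagen. Etfa was highest at 112 CPM per kb, followed by Etfb (81.6), Acadvl (76.8), Cat (73.7) and Acadl (69.7). Cpt1a ranked 10 of 36 at 38.3 CPM per kb, above the other shuttle genes Cpt2 (13.6) and Slc25a20 (12.0), and stood at 57.1 CPM per kb in laminin. Hadha had 57.0 and Hadhb 20.0 CPM per kb. The lowest were Pex7 (3.87), Decr1 (3.01) and Pex10 (2.40). The order depends on these lengths, and whether the longest transcript is the one expressed was not tested. Pex7 averaged 31.4 CPM in collagen, with a longest transcript of 8.10 kb, and Cpt2 32.2 CPM, with one of 2.37 kb.

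**Figure D4:**
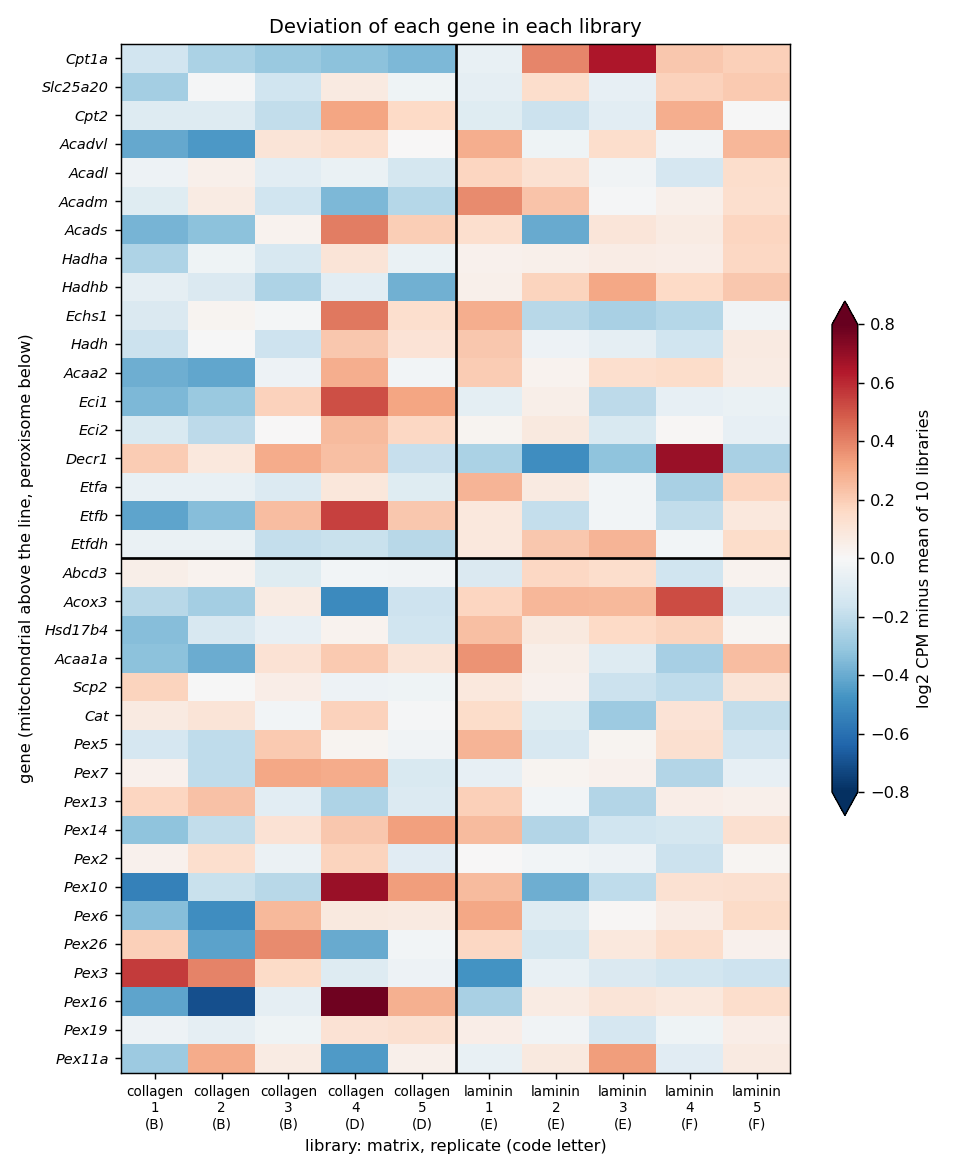
Deviation of each gene (rows, mitochondrial above the line) in each library (columns, with the code letter of the library) from its mean over the 10 libraries, in log2 CPM. Cpt1a is below its mean in all collagen I libraries, and collagen 4 stands high for Eci1, Etfb, Pex10 and Pex16.

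Libraries also differed within a matrix. The labels give each a code letter: B for collagen 1 to 3, D for collagen 4 and 5, E for laminin 1 to 3 and F for laminin 4 and 5, with no meaning stated. No letter is found in both matrices, so whatever the letters mark cannot be told apart from the matrix. Within collagen, 23 of the 36 tested genes were higher in letter D than in letter B and 13 were lower, with a median log2 ratio of mean CPM of 0.094. The highest ratios were 0.95 for Pex16, 0.87 for Pex10, 0.56 for Eci1, 0.53 for Etfb and 0.52 for Acads, and the lowest was -0.46 for Pex3.

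Genes with short transcripts tended to be those higher in letter D. Spearman's rho between transcript length and the log2 ratio of D to B was -0.38 over 36 genes, -0.49 over the 18 mitochondrial and -0.21 over the 18 peroxisomal genes, all from the same 5 libraries. Against the difference between matrices, rho with length was 0.14, 0.30 and 0.15 for the same genes. The ratio of D to B was not compared with GC content over these genes, so whether the pattern follows length or GC content was not tested. Pex10 and Pex3 have transcripts of similar length, 2.79 and 2.96 kb, and log2 ratios of 0.87 and -0.46. Pex16 and Pex10, highest in letter D, have 60.1% and 55.8% GC, and Pex3, the lowest, has 38.5%. Pex26 goes the other way, with 55.2% GC and a log2 ratio of -0.29. For the genes with non-overlapping groups, the log2 ratios of D to B within collagen were -0.11 for Cpt1a, -0.083 for Hadhb and -0.099 for Etfdh. Within laminin, means in letters E and F were 257 and 231 CPM for Cpt1a, 112 and 113 CPM for Hadhb, and 119 and 109 CPM for Etfdh. Picking genes without overlap favours a small spread within each matrix, and neither comparison separates the letters from the matrix. For Pex3, the log2 difference between matrices was -0.15 without the letter B libraries and -0.58 without letter D.

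**Figure D5:**
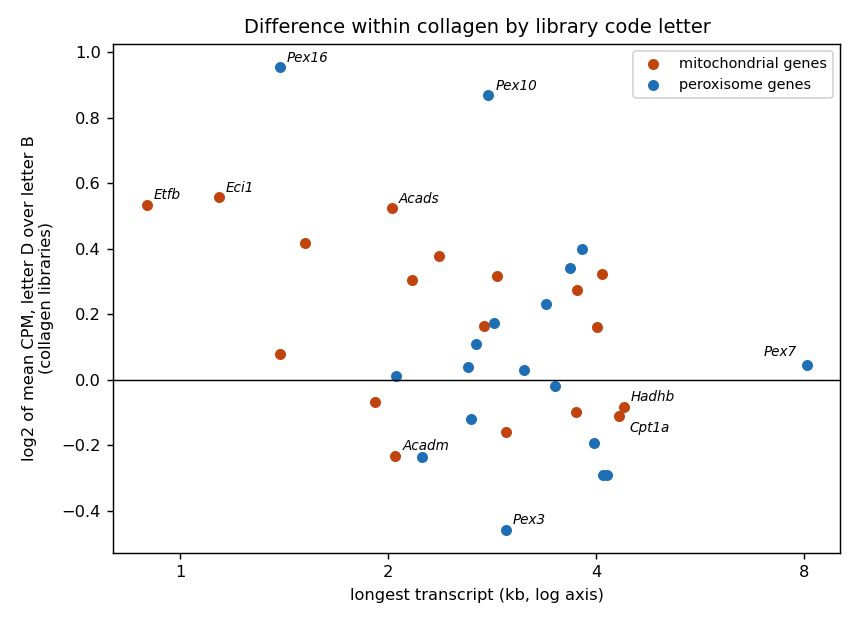
Log2 ratio of mean CPM in collagen I libraries of code letter D over letter B (vertical) against longest transcript length in kb (horizontal, log axis) for the 36 tested genes. Short genes such as Etfb and Eci1 lie above 0, Cpt1a and Hadhb lie near -0.11 and -0.083, and Pex3 is lowest.

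Some genes passed an adjusted p of 0.05 in other fits. Cpt1a did so in DESeq2 (log2 difference 0.56, adjusted p = 0.00413), in edgeR with 1 surrogate variable, a hidden factor estimated from the counts (0.53, 0.0166), with an offset for transcript length and GC content (0.51, 0.0442), without the letter B libraries (0.62, 0.0373) and without laminin 1 (0.65, 0.0313). Of all genes, 4.06% passed with the surrogate variable, 0.964% with the offset, 18.9% without letter B and 0.591% without laminin 1. In the other 16 fits Cpt1a did not pass. At an unadjusted p under 0.05, 7 mitochondrial genes were higher with the surrogate variable, against 14% of all genes, and 8 with the offset, against 8.13%. The surrogate variable put 5 peroxisomal genes at that level in either direction, against 22.6% of all genes. With the offset and a library left out, it passed only without laminin 1 (adjusted p = 0.0106) or laminin 4 (0.0301).

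Hadhb passed in DESeq2 (adjusted p = 0.0227) and with the surrogate variable (edgeR adjusted p = 0.0299). The surrogate variable also brought Acadvl (0.34, edgeR adjusted p = 0.0312) and Pex3 (-0.49, edgeR adjusted p = 0.0191) past the threshold. Without letter B, Acadm (0.43, edgeR adjusted p = 0.0496), Eci1 (-0.52, edgeR adjusted p = 0.0232) and Etfb (-0.46, edgeR adjusted p = 0.0404) passed, in a fit that compares 2 collagen with 5 laminin libraries.

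Wider lists of the pathway were read against all genes tested, of which 6.7% were higher and 4.95% lower at an unadjusted p under 0.05. Of the fatty acid uptake and activation genes, 14 of 28 were tested and none was called, with 3 higher and 1 lower before adjustment and a median log2 difference of 0.010. The transporter Slc27a1 averaged 44.8 ± 8.89 CPM in collagen and 64.7 ± 10.1 CPM in laminin (0.53, edgeR adjusted p = 0.237), the mitochondrial acyl-CoA synthetase Acsf3 23.0 ± 2.01 and 28.4 ± 4.34 CPM (0.30, 0.395), and the fatty acid binding protein Fabp5 25.8 ± 7.77 and 16.5 ± 4.07 CPM (-0.64, 0.305). Of 30 other genes of mitochondrial oxidation, 25 were tested and none was called, with 1 higher (Acacb, whose product makes the malonyl-CoA that inhibits Cpt1 enzymes, at 0.62) and 1 lower (Echdc3, at -0.41) before adjustment and a median of -0.0058. Of 51 other peroxisome genes, 39 were tested and none was called, with 0 higher and 1 lower, the oxidase Acox2 (6.03 ± 0.557 and 3.75 ± 1.08 CPM, -0.67), and a median of -0.031.

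Among the regulators of the pathway, 29 of 34 genes were tested and none was called, with a median log2 difference of 0.12. At an unadjusted p under 0.05, 6 were higher and 0 lower (6.7% and 4.95% of all genes). Group ranges did not overlap for 1 regulator higher and 1 lower in laminin, against 3.23% of all genes in either direction and 1.94% higher. The coactivator gene Ppargc1a averaged 12.8 ± 4.83 CPM in collagen and 33.9 ± 12.1 CPM in laminin (SD, n = 5 per group), with no overlap (1.40, SE 0.29, edgeR adjusted p = 0.0807). The log2 differences of its relative Ppargc1b and of the nuclear receptor Esrra were 1.09 (edgeR adjusted p = 0.200) and 0.56 (0.192). Each passed in some other fits. In DESeq2 the adjusted p was 0.000940 for Ppargc1a and 0.0386 for Ppargc1b. In edgeR with the surrogate variable the adjusted p was 0.00131 for Ppargc1a, 0.0395 for Ppargc1b and 0.00825 for Esrra. In edgeR with the offset it was 0.00762 for Ppargc1a and 0.0366 for Esrra, and without letter B it was 0.0204 for Ppargc1a and 0.0376 for Ppargc1b.

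Of the PPAR target genes, 12 of 26 were tested and 1 was called, higher in laminin. Of all genes tested, 0.148% were called in either direction and 0.139% higher. Plin4, a lipid droplet coat protein, averaged 1.32 ± 0.264 and 3.03 ± 0.613 CPM (1.19, edgeR adjusted p = 0.0990). The list held 2 genes higher and 0 lower at an unadjusted p under 0.05 (6.7% and 4.95% of all genes), and its median was 0.13.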

How the data were processed

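Poly(A) mRNA libraries were made with a stranded kit from 30 ng of RNA, per the labels' protocols. The authors deposited raw read counts, as whole numbers for each gene symbol. The submitters' processing notes name GRCm38 (mm10) as the build and DESeq2 as a tool. How reads were aligned and counted, with which annotation and whether by strand, is not given in the sources used here. Exons of 12 of the 37 genes overlap a gene on the opposite strand (Acaa1a, Acadvl, Acox3, Echs1, Eci2, Etfdh, Hadha, Pex3, Pex13, Pex14, Pex16 and Pex26), so without strand their reads could be mixed.

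Genes were kept with filterByExpr and scaled with TMM, and the 5 laminin libraries were compared with the 5 collagen libraries by edgeR 4.0.16 (quasi-likelihood test, two-sided, no covariate, R 4.3.3). Benjamini-Hochberg adjustment covered the 10789 genes tested, and genes below 0.05 were called. The series description speaks of biological replicates and does not say whether they came from separate cultures, so p-values measure only the spread between these samples. The GENCODE M21 annotation (GRCm38), in which 18338 of 18407 symbols were found, gave positions, transcript lengths and GC content. Start windows and letters come from RefSeq (GRCm38.p6).

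Alternatives were DESeq2 1.42.0, limma-voom (limma 3.58.1), scaling by DESeq2 size factors or by library size alone, no low-count filter, a filter of 1 CPM in at least 5 libraries, the replicate number as a block, 1 surrogate variable (sva 3.50.0), each library or the letter B or D libraries left out, and an offset from a spline (5 degrees of freedom) of each library's deviations on transcript length and GC content. Such an offset takes out matrix effects too, where they follow length or GC content. The offset with each library left out was added after seeing the data. The edgeR step was tested on simulated counts. Statistics are given for genes with an unadjusted p under 0.05 and for Cpt1a, Cpt2, Slc25a20, Acadm, Hadha, Hadhb, Ehhadh, Cat, Abcd3, Pex5, Pex11a and Pex14 whatever their values, and of each wider list for called genes and up to 3 with the smallest p under 0.05. The genes, lists and this rule were chosen with earlier results of these data known. The values of a few genes outside the set are not given here.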

Additional observations from a re-analysis of the deposited data

Results flagged for a closer look

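For the 36 tested genes and the medians of both gene sets, 76 groups of 5 libraries were checked for a library standing apart, and 6 held one whose gap to the next library, as a share of the group's range, was above Dixon's 95% critical value. Chance flags about 1 in 20 groups, or 3.8 of 76. In log2 CPM, laminin 2 stood at 5.82 for Acads with the next library at 6.29, laminin 5 at 8.08 for Hadha with the next at 7.97, and collagen 4 at 7.42 for Etfa with the next at 7.27. Laminin 4 stood at 3.76 for Decr1 with the next library at 2.82. Laminin 1 stood low for Pex3, at 4.04 with the next at 4.35, and for Pex16, at 3.28 with the next at 3.60.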

How the results depend on the processing

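Over 21 alternatives, 17 of the 36 tested genes kept the sign of their difference and 19 changed it in at least 1, and the causes were not tested. Cpt1a lay between 0.45 and 0.65 on the log2 scale, with adjusted p from 0.00413 to 0.301. Genes called over the whole table numbered 16, against 209 in DESeq2, 29 with no filter, 438 with 1 surrogate variable, 104 with the length and GC offset, 2083 without letter B, 5 without letter D and 0 to 64 with each library left out. They were 0 without collagen 3, collagen 5 or laminin 2, 2 without collagen 2, 5 without laminin 3 or laminin 5, 36 without laminin 4 and 64 without laminin 1. With the replicate number as a block 0 genes were called. Deviations of same-numbered libraries had correlations of -0.31, 0.26, -0.11, -0.33 and 0.48, and not every library correlated best with its own number. Differences between libraries within a matrix enter these correlations too, so they cannot exclude a pairing. The main fit treated the libraries as unpaired.

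Mitochondrial genes called were 2 in DESeq2 (1.94% of all genes), 3 with the surrogate variable (4.06%) and 1 with the offset (0.964%). Without letter B they were 4, against 18.9% of all genes, and of these Eci1 and Etfb were lower in laminin. With each library left out they were 0 to 1, the 1 being without laminin 1 (0.591% of all genes). Peroxisomal genes called were 1 with the surrogate variable (4.06% of all genes). Mitochondrial genes higher at an unadjusted p under 0.05 were 7 with the surrogate variable (14% of all genes) and 8 with the offset (8.13%), and peroxisomal genes at that level were 5 with the surrogate variable (22.6%). The mitochondrial median was -0.017 without letter B, 0.17 without letter D and 0.063 (without laminin 1) to 0.13 (without collagen 4) with each library left out. The peroxisomal median was -0.061 without letter B, 0.034 without letter D and -0.057 to 0.020 with each library left out.

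The log2 differences that changed sign were, in DESeq2, -0.0022 for Acads, -0.0056 for Hadh and -0.0027 for Pex13. With DESeq2 size factors they were -0.0021, -0.0066 and -0.0025 for the same genes, with library size only -0.0077, -0.014 and -0.0077, with no filter -0.014, -0.019 and -0.015, and with 1 CPM in 5 libraries -0.011, -0.015 and -0.010. In limma-voom they were 0.011 for Pex10 and 0.072 for Pex16, and with the replicate block 0.043 for Pex16. With the surrogate variable they were -0.024 for Pex13, 0.14 for Pex10, 0.22 for Pex16, 0.027 for Cpt2, 0.022 for Eci2, 0.027 for Etfb and 0.041 for Pex14. Without letter B they were -0.31 for Acads, -0.18 for Hadh, -0.051 for Acaa2, -0.11 for Acaa1a and -0.0086 for Pex6. Without letter D they were -0.098 for Pex13, 0.33 for Pex10, 0.41 for Pex16, 0.13 for Cpt2, 0.092 for Eci2, 0.093 for Etfb, 0.10 for Pex14, 0.061 for Eci1, 0.032 for Pex19 and -0.033 for Pex26. With the offset they were -0.019 for Hadh, 0.093 for Pex16, 0.020 for Cpt2, 0.0033 for Etfb, -0.0080 for Pex26, 0.0010 for Scp2 and 0.030 for Pex2. With each library left out the ranges were -0.097 to 0.12 for Acads, -0.058 to 0.062 for Hadh, -0.047 to 0.048 for Pex13, -0.22 to 0.13 for Pex10, -0.19 to 0.21 for Pex16, -0.14 to 0.051 for Cpt2, -0.12 to 0.020 for Eci2, -0.17 to 0.015 for Pex14, -0.030 to 0.20 for Pex26, -0.029 to 0.061 for Abcd3 and -0.0083 to 0.12 for Pex5.

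Depth limits Ehhadh, which had 5 counts in all. The offset with each library left out was chosen after seeing the data. The code letters cannot be told apart from the matrix, and every library comes from the same line.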
